A study of Drosophila melanogaster with 9 samples.

Results

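Acid lipases of the Lip3 family were followed in the midgut of Drosophila melanogaster larvae: Lip1, Lip3, Lip4, mag (magro), CG8093 and CG31089. The members were taken by gene name, and each was represented by 1 probe set of the array, so that 6 genes of the 10844 with a probe set of their own are described. Their probe sets were 143988_at for Lip1, 143987_at for Lip3, 146165_at for Lip4, 141426_at for mag, 147235_at for CG8093 and 150626_at for CG31089. In the RefSeq annotation of Release 6, Lip1 and Lip4 lie on chromosome arm 2L, CG8093 on 2R, mag on 3L, and Lip3 and CG31089 on 3R.

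The study compared third-instar larvae of the strain W1118 under 3 conditions, with 3 Affymetrix arrays per condition. Control larvae were labelled normal, with 12 h in their titles as for the treated larvae, and 120 h old. WGA larvae were 108 h old (108 to 110 h for replicate 1) and then fed for 12 h on 1% wheat germ agglutinin, a wheat lectin that binds N-acetylglucosamine and chitin. Starved larvae were 108 h old and then went 12 h without food. Each array carried total RNA of 1 pool of 50 midguts, so the replicate error is that between pools, and the whole midgut includes visceral muscle and any attached tissue. In such bulk RNA, fewer cells of a type and less RNA per cell cannot be told apart.

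Acid lipases are alpha/beta hydrolases related to the lysosomal acid lipase of vertebrates, which frees fatty acids and sterols from triglycerides and cholesteryl esters at low pH. In Drosophila the family is expanded. mag is secreted by the gut to digest dietary triglyceride and also splits cholesteryl esters inside enterocytes. Lip4 is known as a target of the insulin-regulated transcription factor FOXO, Lip3 is known as a transcript that fasting induces in larvae, and CG8093 and CG31089 are predicted lipases that are known only by their CG numbers.

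Signals are given below as deposited, on a linear scale. Normalised log2 signals, log2 changes and their standard errors come from log2 of the signal plus an offset of 1.72 signal units, quantile normalised between arrays, so that changes of dim genes are understated. The level above which a probe set was taken as measurable, the filter level, was 2.79 on the normalised log2 scale, or a signal of about 5.18. Testing was limited to probe sets that exceeded this level on 3 or more of the 9 arrays, which left 5 of the 6 genes. A change was called at a limma adjusted p under 0.05 over all 9675 tested probe sets. Signals of different probe sets are not compared with each other.

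Total deposited signal ran from 909028 to 1457250 per array. Arrays of the same group correlated with Pearson r of 0.907 to 0.950, and arrays of different groups with 0.843 to 0.905. These correlations run across probe sets and not across independent replicates. Of 8 enterocyte markers, 6 had a probe set and all 6 lay above the filter level on every array. Summed over these markers, signals reached 1043 to 1743 in control, 3243 to 3900 after WGA and, in starved larvae, 1120 to 1769. Fat body markers, with 5 of 8 represented, summed to 192 to 311, 248 to 616 and 197 to 902 in the same order. Visceral muscle markers, with 4 of 8 represented, summed to 1558 to 2279 in control and 1139 to 1566 after starvation, and WGA replicate 1 stood apart at 4105 against 1564 and 1575 for the other WGA arrays. The sums of 6 haemocyte markers, of 6 salivary gland markers and of 3 represented Malpighian tubule markers reached at most 134, 60.0 and 139 on any array, and that of the tubule markers was highest in control, at 86.6 to 139, against 19.8 to 51.3 after WGA and 18.3 to 28.6 after starvation. No marker was listed at 0 on any array. For eIF-4a, whose control probe sets compare the 3 prime with the 5 prime end of a transcript, that ratio was 3.60 to 5.71 in control, 2.75 to 3.52 after WGA and 2.83 to 3.56 in starved larvae.

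Lip3 had the largest rise of all tested probe sets under both treatments. Its deposited signal was 3.99, 20.3 and 19.1 on the 3 control arrays, 1343, 634 and 1283 after WGA, and 1913, 1357 and 1658 after starvation. The control arrays were all low, replicate 1 lying just above the filter level at a normalised log2 of 2.81, and no treated array came near them: the lowest WGA array was 31.2 times and the lowest starved array 66.9 times the highest control array.

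**Figure D1:**
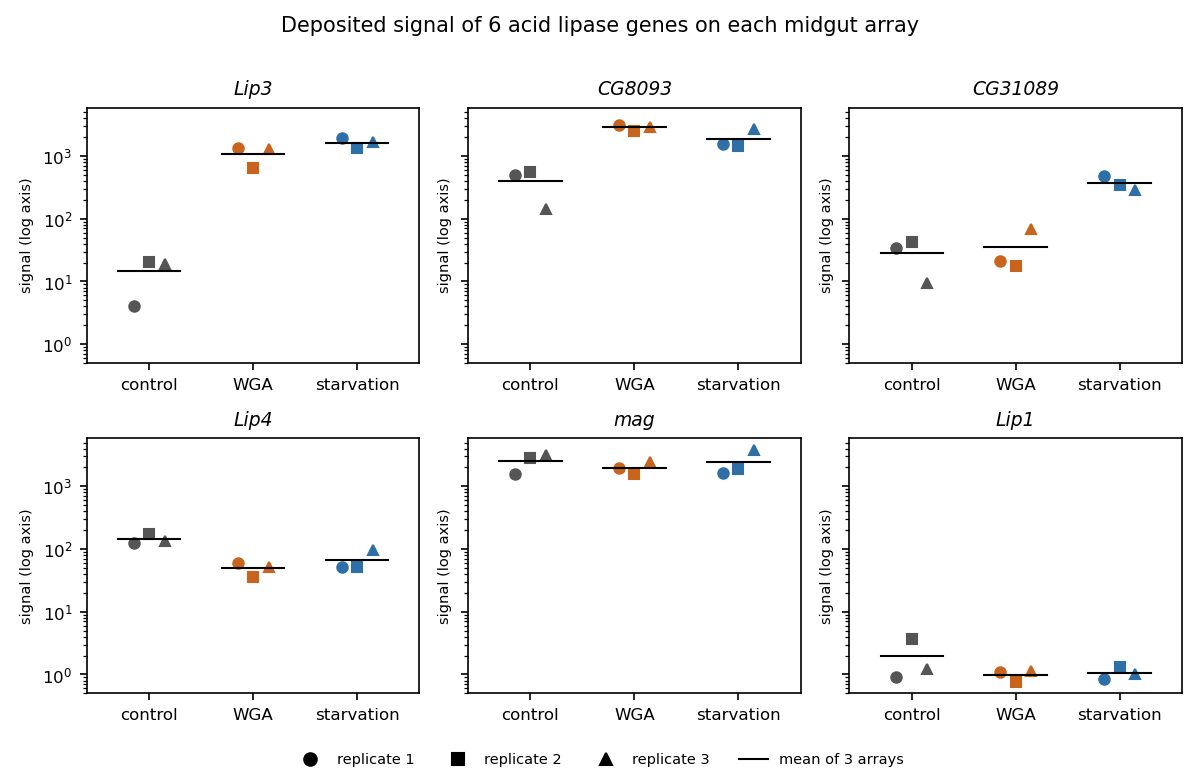
Deposited signal (log axis, the same in all panels) of each of the 6 acid lipase genes on the 9 arrays, by group. Symbols mark the replicate and bars the mean of 3 arrays. Lip3 and CG8093 are higher on all 6 treated arrays, CG31089 on the 3 starved arrays only, Lip4 is lower on all 6 treated arrays, mag overlaps in all groups and Lip1 stays below 4 on every array.

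For Lip3 the normalised log2 signal was 3.97 ± 1.02 (SD, n = 3) in control, 9.87 ± 0.58 after WGA and 10.76 ± 0.16 after starvation. The log2 change was 5.89 ± 0.40 (SE) after WGA, a 59.4-fold rise with adjusted p = 2.34e-07, and 6.78 ± 0.40 after starvation, a 110.2-fold rise with adjusted p = 2.52e-07. The control level was near the filter level, and without control replicate 1, the dimmest array, the log2 changes were 5.31 ± 0.27 and 6.20 ± 0.27. Each rise ranked first among 9675 probe sets.

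WGA and starvation did not differ past the threshold for Lip3. The log2 difference, WGA minus starvation, was -0.89 ± 0.40 with a 95% interval of -1.75 to -0.04 and adjusted p = 0.199. On the deposited scale the highest WGA array, at 1343, fell just short of the lowest starved array, at 1357, so the groups did not overlap. The call depends on the arrays used to estimate the spread: adjusted p was 0.0290 without control replicate 1 and 0.0411 when only the WGA and starved arrays were fitted.

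CG8093 also rose under both treatments. Its deposited signal was 491, 560 and 142 in control, 3110, 2506 and 2957 after WGA, and 1529, 1424 and 2751 after starvation. All treated arrays exceeded all control arrays, and control replicate 3 was the lowest by far. The normalised log2 signal was 8.41 ± 0.80 (SD, n = 3) in control, 11.34 ± 0.08 after WGA and 10.92 ± 0.28 after starvation.

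For CG8093 the log2 change was 2.93 ± 0.29 (SE) after WGA, a 7.61-fold rise with adjusted p = 8.47e-06, and 2.51 ± 0.29 after starvation, a 5.69-fold rise with adjusted p = 6.69e-05. These were the 39th and the 40th largest rises of all tested probe sets. Without control replicate 3 they were 2.47 ± 0.16 and 2.05 ± 0.16. The difference between WGA and starvation was 0.42 ± 0.29, with a 95% interval of -0.21 to 1.05 and adjusted p = 0.463, and on the deposited scale the arrays of these groups overlapped. On the normalised log2 scale they did not, with the lowest WGA array at 11.28 and the highest starved array at 11.23.

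CG31089 rose after starvation and was not called after WGA. Its deposited signal was 34.7, 42.5 and 9.34 in control, 21.3, 18.0 and 68.2 after WGA, and 481, 349 and 287 after starvation. The 3 starved arrays stood above the other 6, the lowest of them 6.76 times the highest control array. Control and WGA overlapped, with the lowest value in control replicate 3 and the highest of the 6 in WGA replicate 3.

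The normalised log2 signal of CG31089 was 4.89 ± 1.01 (SD, n = 3) in control, 4.68 ± 1.00 after WGA and 8.73 ± 0.51 after starvation. Against control the log2 change was 3.84 ± 0.51 (SE) after starvation, a 14.3-fold rise with adjusted p = 0.000167 and the eighth largest of all tested probe sets. It was -0.21 ± 0.51 after WGA, with a 95% interval of -1.30 to 0.88 and adjusted p = 0.824. The treatments themselves differed by a log2 of -4.05 ± 0.51, a signal 16.5-fold lower after WGA than after starvation, with adjusted p = 0.000106. This was the eleventh largest fall in that comparison.

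**Figure D2:**
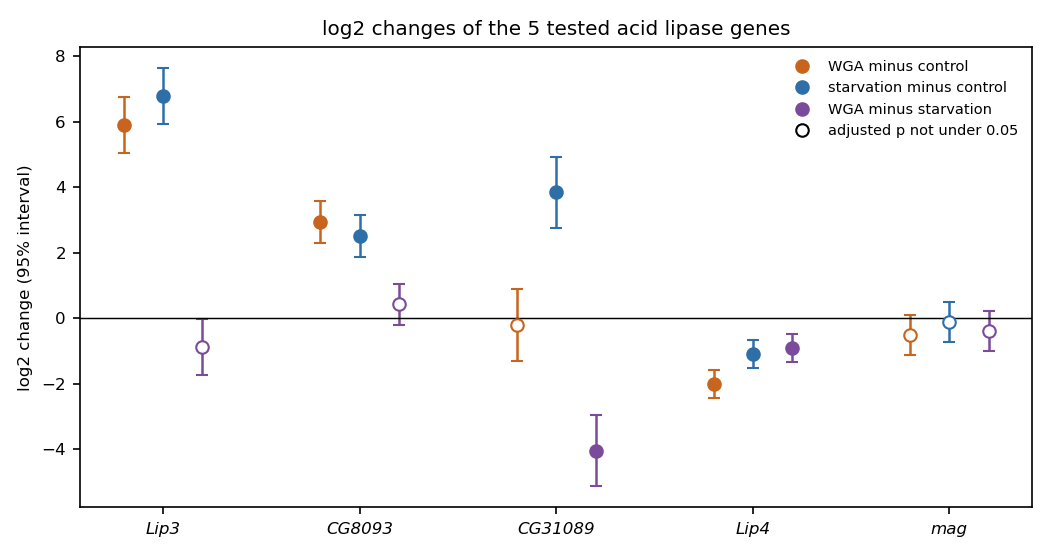
log2 change of the 5 tested genes in 3 comparisons. Points are the fitted changes, bars their 95% intervals, and open points have an adjusted p of 0.05 or more. Lip3 and CG8093 lie above 0 against control under both treatments, CG31089 only under starvation, and Lip4 lies below 0 in each comparison.

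Lip4 fell under both treatments. Its deposited signal was 126, 177 and 135 in control, 59.3, 35.4 and 52.5 after WGA, and 52.2, 51.4 and 96.3 after starvation. Every control array exceeded every treated array, while WGA and starvation overlapped on this scale. The normalised log2 signal was 7.30 ± 0.10 (SD, n = 3) in control, 5.29 ± 0.24 after WGA and 6.21 ± 0.29 after starvation.

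For Lip4 the log2 change was -2.01 ± 0.20 (SE) after WGA, a 4.03-fold fall with adjusted p = 7.87e-06, and -1.09 ± 0.20 after starvation, a 2.14-fold fall with adjusted p = 0.00205. The fall after starvation was not called with scaling on spike-in probe sets, at -0.70 ± 0.32 and adjusted p = 0.128. The difference between WGA and starvation was -0.92 ± 0.20 with adjusted p = 0.00764, so Lip4 was lower after WGA. That call was lost with the deposited scaling, at -0.40 ± 0.31 and adjusted p = 0.462, with median centring, at -0.64 ± 0.22 and adjusted p = 0.0811, and with spike-in scaling, at -0.79 ± 0.32 and adjusted p = 0.169.

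mag was bright in every group and was not called in any comparison. Its deposited signal was 1582, 2799 and 3172 in control, 1958, 1549 and 2424 after WGA, and 1625, 1899 and 3829 after starvation. The groups overlapped, and the starved arrays alone spanned nearly the whole range. The normalised log2 signal was 11.32 ± 0.59 (SD, n = 3) in control, 10.80 ± 0.32 after WGA and 11.19 ± 0.47 after starvation.

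The log2 change of mag was -0.52 ± 0.28 (SE) after WGA, with a 95% interval of -1.12 to 0.09 and adjusted p = 0.222. It was -0.13 ± 0.28 after starvation, with an interval of -0.73 to 0.48 and adjusted p = 0.821. WGA and starvation differed by -0.39 ± 0.28, with an interval of -0.998 to 0.21 and adjusted p = 0.476. These misses of the threshold do not show that mag stayed level, and the intervals give the sizes of change that the arrays leave possible.

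Lip1 was not measurable on any array. Its deposited signal was 0.906, 3.72 and 1.23 in control, 1.08, 0.764 and 1.12 after WGA, and 0.855, 1.32 and 1.01 after starvation. All 9 values lay below the filter level, so Lip1 was not tested and its groups were given no order.

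Read by comparison, 2 of the 5 tested genes rose and 1 fell after WGA, where 11.6% of all tested probe sets rose and 10.1% fell. After starvation 3 rose and 1 fell, against 8.12% and 7.09% of all tested probe sets. Between the treatments 0 were higher after WGA and 2 were lower, against 5.94% and 5.57%. Both treatments were set against the same 3 control arrays, so their changes against control are not independent. With so few genes these counts describe the members and were not tested as a group. The members and the gene lists below were chosen with earlier results of these data known. Counts above these shares can follow from that choice. From lowest to highest, the order of the levels was control, WGA, starvation for Lip3 and control, starvation, WGA for CG8093, each with its treated groups not distinguished by the test. For Lip4 it was WGA, starvation, control, where the step from WGA to starvation depended on the scaling. For mag, no group was distinguished from another. For CG31089, WGA and control were not distinguished and starvation was highest.

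**Figure D3:**
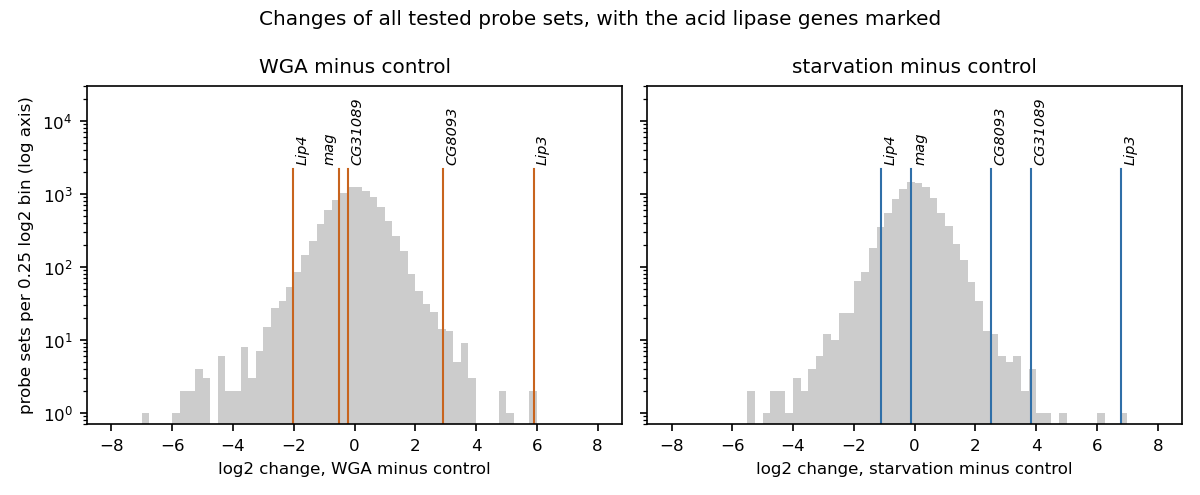
Distribution of log2 changes over the 9675 tested probe sets (bars, counts per bin on a log axis) after WGA and after starvation, each against the same controls. Vertical lines mark the 5 tested acid lipase genes. Lip3 lies at the upper end of both distributions, CG31089 moves from the centre after WGA to the upper tail after starvation, and Lip4 lies in the lower part of both.

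The array quality and tissue values moved with some of these results. Enterocyte marker sums were higher after WGA than in control, where 5 of the 6 markers rose, while after starvation the sums overlapped those of control and 3 of the 6 rose. The log2 changes of Lip3 and CG8093 were 5.89 and 2.93 after WGA and 6.78 and 2.51 after starvation. The part of enterocyte content in these rises was not tested. Fat body marker sums were highest on starvation replicates 2 and 3, at 782 and 902. Of the 5 such markers 1, the storage protein gene Lsp2, rose after starvation. Lsp2 made up most of both sums, with a median of 581 and a maximum of 597 in starved larvae. Its lowest starved signal, 108, lay within its control range of 76.5 to 117. The other 4 were not called, at log2 changes of -0.24 for Fbp1, -0.81 for Fbp2, 0.73 for apolpp and 1.01 for Apoltp. Starvation replicate 1, with the lowest fat body sum of that group at 197, had the highest signals of Lip3, at 1913, and of CG31089, at 481. CG8093 ran the other way, with 1529 on starvation replicate 1 and its highest starved signal, 2751, on replicate 3, which had the highest fat body sum. The part of fat body tissue in these rises was not tested. Without WGA replicate 1, in which muscle markers stood apart, the WGA log2 changes were 5.78 ± 0.45 for Lip3 and 2.94 ± 0.34 for CG8093. The eIF-4a ratio separated the control arrays from all treated arrays. The GAPDH ratio was 1.97 to 2.92 in control, 2.22 to 2.41 after WGA and 2.92 to 3.35 after starvation, so it separated the WGA from the starved arrays, between which CG31089 and Lip4 differed. The actin ratio was 1.44 to 2.36, 1.17 to 1.49 and 1.44 to 1.51 in the same order. The part of these ratios in any change was not tested. Malpighian tubule marker sums were also higher on every control array than on every treated array, as were the signals of Lip4. Of the 2 tested tubule markers 1, Smvt, fell under both treatments. Smvt made up most of the control sums, with a mean signal of 90.6 against 12.9 for NaPi-T and 1.55 for Irk3. NaPi-T was not called, at -1.05 after WGA and -0.81 after starvation, and Irk3 did not pass the filter. The part of tubule tissue in the falls of Lip4 was not tested.

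The rest of the family was mostly not measurable in this tissue. Of 16 further acid lipase genes, 15 had a probe set of their own and CG31091 was not analysed here. Of these 15, 9 did not pass the filter, with signals of 0.155 to 13.5 over all arrays, and 6 were tested. Of the 6, 0 rose and 2 fell after WGA, 1 rose and 0 fell after starvation, and 0 were higher and 2 lower after WGA than after starvation. The shares of all tested probe sets were 11.6% and 10.1% after WGA, 8.12% and 7.09% after starvation, and 5.94% and 5.57% between the treatments. With 6 genes a count of 1 is near this background. Median log2 changes of the 6 genes were -0.60, 0.00 and -0.82 in the same order, against 0.03, 0.01 and 0.01 for all tested probe sets.

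CG2772, a predicted lipase, had signals of 549 to 860 in control, 383 to 660 after WGA and 1127 to 1558 after starvation, so the starved arrays stood above all others. It rose after starvation by a log2 of 1.04 ± 0.17 with adjusted p = 0.00102, and it was 1.68 ± 0.17 higher in starvation than after WGA (WGA minus starvation -1.68 ± 0.17, adjusted p = 2.12e-05). Its fall after WGA, -0.65 ± 0.17 with adjusted p = 0.0154, was lost without control replicate 1 (adjusted p = 0.0542) and without WGA replicate 2 (adjusted p = 0.0877), and with the deposited and the spike-in scaling (adjusted p = 0.230 and 0.249), which leaves 1 fall in the list. CG3635 had signals of 56.6 to 80.0 in control, 28.1 to 43.1 after WGA and 63.1 to 86.0 after starvation. It fell after WGA by a log2 of 1.48 (-1.48 ± 0.19, adjusted p = 5.89e-05), and was lower after WGA than after starvation (-1.51 ± 0.19, adjusted p = 9.53e-05), while the control and starved arrays overlapped.

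Genes of the family often neighbour each other. Lip4 is followed by CG18301 and CG18302 as 3 consecutive protein-coding genes, and CG7329, CG31872, CG18284 and CG17097 form a run of 4 farther along the same arm. CG18530, CG11598, CG11600, CG11608 and CG6753 form a run of 5, and CG31089 lies next to CG31091. Of these runs of 3 and 4 genes, Lip4 and CG18301 passed the filter, and CG18301 was above the filter level on some arrays of each group only, with a signal of at most 6.78. Of the run of 5, CG18530 and CG11608 passed the filter, with signals of at most 19.1 and 10.6. Lip1, Lip3, mag and CG8093 have no listed family gene as an immediate neighbour.

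**Figure D4:**
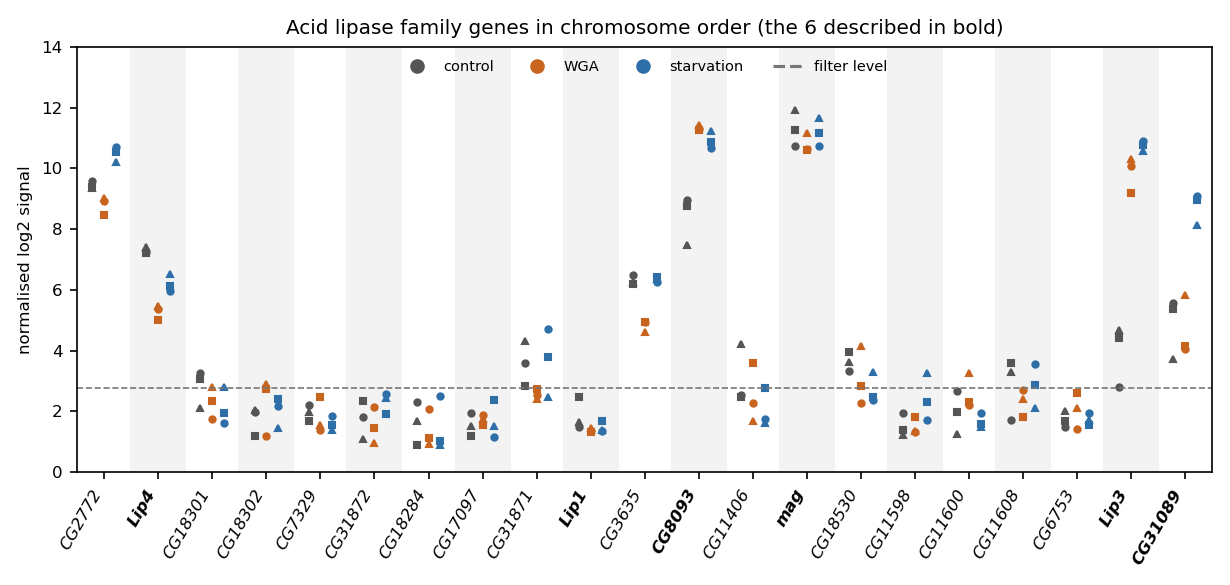
Normalised log2 signal of 21 acid lipase family genes on the 9 arrays, in chromosome order, with the 6 genes described here in bold and the filter level dashed. Symbols mark the replicate as in the plot of deposited signals, and heights of different genes are not comparable since each has its own probe set. The further family genes that stand well above the filter level on all arrays are CG2772 and CG3635.

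Regulators of lipid and sugar metabolism were read beside the lipases. Of 10 listed, 9 had a probe set and 8 were tested. After WGA 1 rose and 2 fell, after starvation 2 rose and 1 fell, and 2 were higher and 1 lower after WGA than after starvation, with median log2 changes of 0.14, 0.10 and -0.46, against 0.03, 0.01 and 0.01 for all tested probe sets. Over all tested probe sets 11.6% rose and 10.1% fell after WGA, 8.12% and 7.09% after starvation, and 5.94% were higher and 5.57% lower after WGA than after starvation, so with 8 genes a count of 1 is near the background. These counts turned on single arrays. The 2 falls after WGA became 1 without control replicate 2 or 3, WGA replicate 1 or 2, or starvation replicate 2, the 1 rise became 2 without control replicate 3, the 2 rises after starvation became 1 without control replicate 2, WGA replicate 2 or any 1 starved array, and the 1 lower value became 0 without control replicate 2 or any 1 treated array.

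sug (sugarbabe), a zinc finger transcription factor induced by dietary sugar, had signals of 87.3 to 166 in control, 13.0 to 27.6 after WGA and 1.08 to 2.37 in starved larvae. The 3 groups did not overlap, and the starved arrays were below the filter level. Its log2 change was -3.00 ± 0.33 (SE) after WGA with adjusted p = 2.08e-05 and -5.42 ± 0.33 after starvation with adjusted p = 3.32e-07, and it was higher after WGA than after starvation by 2.42 ± 0.33 with adjusted p = 0.000252. Since the starved arrays were below the filter level, the sizes of -5.42 and 2.42 depend on the offset.

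Hr96 encodes the nuclear receptor DHR96, of which mag is a known target in Drosophila. Its signal was 11.01 to 24.4 in control, 98.9 to 156 after WGA and 11.1 to 19.2 after starvation, so only the WGA arrays were high. Hr96 rose after WGA by a log2 of 2.29 ± 0.25 with adjusted p = 1.72e-05, while mag had -0.52 ± 0.28 in the same comparison. Hr96 was also higher after WGA than after starvation, by 2.42 ± 0.25 with adjusted p = 2.2e-05.

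Hnf4, a nuclear receptor that promotes fatty acid catabolism in starved larvae, had signals of 31.3 to 54.9 in control, 81.2 to 107 after WGA and 85.0 to 108 after starvation. It rose after starvation by a log2 of 1.08 ± 0.18 with adjusted p = 0.00108. On the normalised scale it was lower after WGA than after starvation (-0.62 ± 0.18, adjusted p = 0.0422). The deposited signals of these 2 groups overlapped. With each array left out in turn, the limma adjusted p of this difference ran from 0.0253 to 0.166. Mondo and bigmax encode the partners of a sugar-sensing transcription factor. Mondo fell after WGA (-0.77 ± 0.25, adjusted p = 0.0441), and bigmax rose after starvation (0.70 ± 0.20, adjusted p = 0.0312). foxo, whose protein is regulated mainly by its location in the cell, had normalised log2 signals of 2.93 ± 0.72, 3.40 ± 0.42 and 3.99 ± 0.53 in control, WGA and starvation and was not called in any comparison. Mitf, a regulator of lysosomal genes, did not pass the filter.

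**Figure D5:**
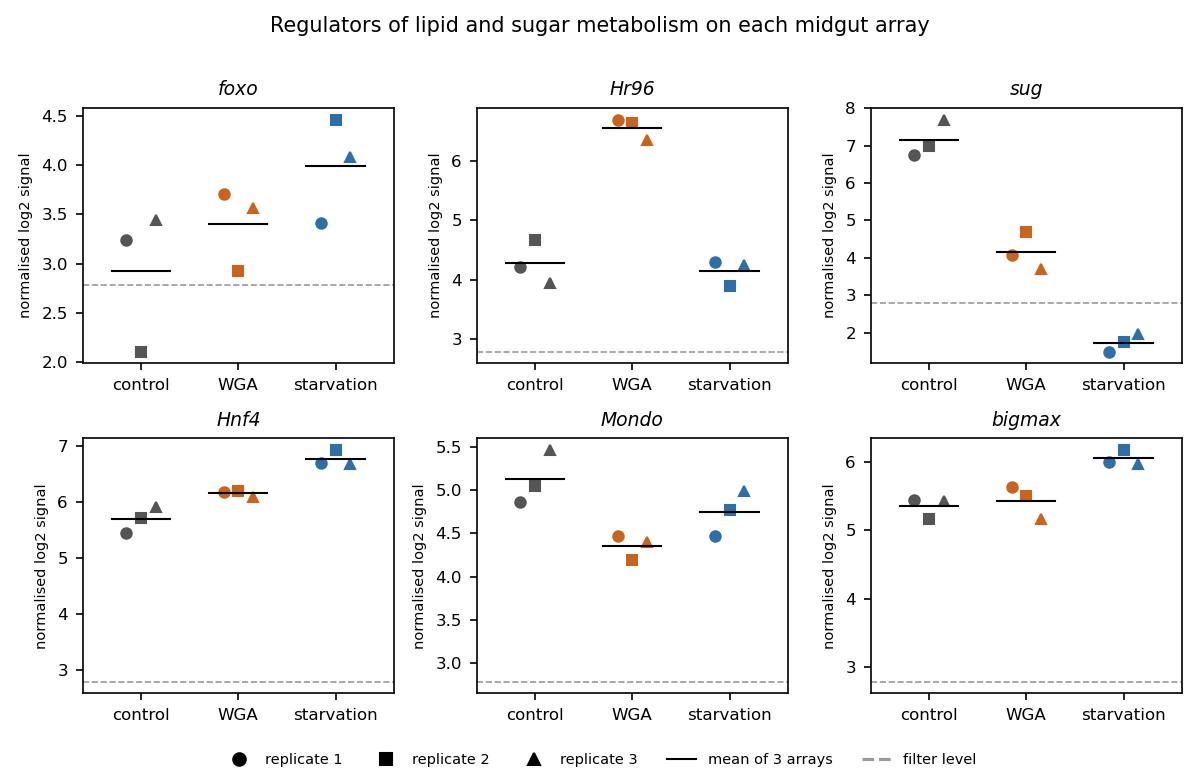
Normalised log2 signal of 6 regulators on the 9 arrays by group, with bars for the mean of 3 arrays, the filter level dashed and a scale of its own in each panel. sug is highest in control and lowest in starvation, Hr96 is high on the 3 WGA arrays, and Hnf4 is highest on the starved arrays.

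Genes of the lysosome, where acid lipases of vertebrates act, were called in both directions in each comparison. Of 10 listed genes, all tested, 2 rose and 2 fell after WGA, 2 rose and 2 fell after starvation, and 1 was higher and 3 were lower after WGA than after starvation, with median log2 changes of 0.41, 0.38 and 0.08. The shares of all tested probe sets were 11.6% and 10.1% after WGA, 8.12% and 7.09% after starvation, and 5.94% and 5.57% between the treatments. A count of 1 among 10 genes is near this background, and counts of 2 are little above it. The 3 lower after WGA than after starvation stand farther above their share of 5.57%. They numbered 2 to 3 with each array left out in turn, and the list was not tested as a group. CtsL1, a cathepsin L protease, rose under both treatments, by 1.58 ± 0.21 with adjusted p = 8.83e-05 and by 1.38 ± 0.21 with adjusted p = 0.000482. LManV, a lysosomal alpha-mannosidase, fell under both, with -2.66 ± 0.21 at adjusted p = 1.05e-06 and -1.40 ± 0.21 at adjusted p = 0.000493, and was lower after WGA than after starvation (-1.26 ± 0.21, adjusted p = 0.00127). LManII, another such mannosidase, had the largest fall of the list after WGA (-2.97 ± 0.24, adjusted p = 1.27e-06) and was lower there than after starvation (-2.35 ± 0.24, adjusted p = 2.15e-05). Npc2a, which encodes a sterol-binding protein, rose after WGA (adjusted p = 0.000628) and was higher there than after starvation (0.63 ± 0.17, adjusted p = 0.0247). Of the subunit genes of the proton pump, Vha100-1 rose after starvation (0.71 ± 0.21, adjusted p = 0.0363) and was lower after WGA than after starvation (-0.75 ± 0.21, adjusted p = 0.0343), and VhaAC39-1 fell after starvation (-0.48 ± 0.13, adjusted p = 0.0218). The 2 rises after WGA became 4 without control replicate 3 or starvation replicate 1. The 2 rises after starvation became 1 without control replicate 1 or 2, any 1 WGA array, or starvation replicate 2 or 3. The 2 falls after starvation became 1 without control replicate 2 or starvation replicate 2 or 3, and the 1 higher value became 0 without WGA replicate 2 or 3 or starvation replicate 1 or 2.

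Among 6 genes of lipid droplets and cytosolic lipid turnover, 5 were tested. After WGA 0 rose and 2 fell, and after starvation 1 rose and 0 fell. Against starvation, 0 were higher and 3 lower after WGA. The medians were -0.60, 0.04 and -1.14, against 0.03, 0.01 and 0.01 for all tested probe sets. The shares of all tested probe sets were 11.6% and 10.1% after WGA, 8.12% and 7.09% after starvation, and 5.94% and 5.57% between the treatments. With 5 genes a count of 1 is near this background. Lsd-1, which encodes a perilipin of lipid droplets, had the largest fall after WGA, -2.88 ± 0.51 with adjusted p = 0.00107. mdy, a diacylglycerol acyltransferase gene, fell after WGA (-1.10 ± 0.28, adjusted p = 0.0128) and was lower there than after starvation (-1.14 ± 0.28, adjusted p = 0.0176). Lpin, the lipin gene, rose after starvation (0.93 ± 0.26, adjusted p = 0.0299) and was lower after WGA than after starvation (-1.18 ± 0.26, adjusted p = 0.00908), as was the perilipin gene Lsd-2 (-0.79 ± 0.21, adjusted p = 0.0243). The deposited signals of Lsd-2 overlapped, at 71.7 to 115 after WGA and 88.5 to 155 after starvation. With each array left out in turn, the limma adjusted p of that Lsd-2 difference ran from 0.0106 to 0.127. bmm, the adipose triglyceride lipase brummer, had signals of 10.5 to 26.8 in control, 14.8 to 20.5 after WGA and 17.7 to 21.9 after starvation, which overlapped, and it was not called in any comparison. Without WGA replicate 2, the falls after WGA numbered 1, the lower values against starvation 0 and the falls after starvation 1. Without control replicate 1 or 2 or starvation replicate 1 or 3, the rises after starvation numbered 0.

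A list of genes taken as lipases of the pancreatic type, a separate family of neutral lipases, was read for comparison. Of its 10 genes, 9 were tested. The list was matched by gene name. Whether each entry, CG8562 among them, belongs to that family was not checked, so the counts and medians are those of the list. After WGA 0 rose and 6 fell, and after starvation 2 rose and 2 fell. Against starvation, 2 were higher and 5 lower after WGA. The medians were -2.13, 0.27 and -3.71, against 0.03, 0.01 and 0.01 for all tested probe sets. The shares of all tested probe sets were 11.6% and 10.1% after WGA, 8.12% and 7.09% after starvation, and 5.94% and 5.57% between the treatments. The largest fall after WGA was that of CG6277, -5.27 ± 0.21 with adjusted p = 2.56e-09, followed by CG6295 (-5.09 ± 0.30), CG6283 (-5.05 ± 0.20) and CG17191 (-4.97 ± 0.23). These 4 were also the most lowered after WGA against starvation, by log2 differences of -5.55, -5.51, -5.73 and -5.68 in that order. After starvation CG6283 rose (0.68 ± 0.20, adjusted p = 0.0365), while CG8562 fell (-1.42 ± 0.16, adjusted p = 5.64e-05), as did CG5162 (-1.38 ± 0.44, adjusted p = 0.0494). CG6271 had signals of 117 to 262 in control, 230 to 646 after WGA and 3761 to 4885 in starved larvae. The starved arrays of CG6271 stood far above the rest, and it rose after starvation by a log2 of 4.46 ± 0.30 with adjusted p = 7.78e-07, while the 95% interval of its change after WGA, 0.10 to 1.40, went with adjusted p = 0.0982. The difference between the families was not tested. Several counts turned on single arrays. The 0 rises after WGA became 1 without WGA replicate 2. The 2 rises after starvation became 4 without control replicate 3 and 1 without control replicate 1 or 2, WGA replicate 2 or any 1 starved array. The 2 falls after starvation became 1 without control replicate 2, WGA replicate 3, or starvation replicate 1 or 2. The 2 higher values after WGA became 0 without WGA replicate 1 and 1 without WGA replicate 3 or any 1 starved array.

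The tested genes whose normalised log2 signals ran most like each lipase over the 9 arrays are given as a description, and these points share their 3 groups and their arrays. For Lip3 they were Rm62, which encodes a DEAD-box RNA helicase, trx, the trithorax chromatin regulator, and smash, with Pearson r of 0.994, 0.992 and 0.990. Rm62 had group means of 6.63, 8.56 and 8.82 in control, WGA and starvation, a much smaller range than that of Lip3. For CG8093 they were dome, the receptor of the JAK-STAT pathway, CG10962 and Snr1, a subunit of the Brahma chromatin complex, with r of 0.980, 0.976 and 0.972. dome had group means of 2.06, 5.27 and 4.82, and its control mean lay below the filter level.

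For CG31089 the most alike were Cyp12c1, a cytochrome P450, CDase, the neutral ceramidase, and CG31075, with r of 0.965, 0.963 and 0.952. CDase had group means of 7.90, 7.73 and 9.07, so starvation was highest there too. For Lip4 they were Cyp6a21, another cytochrome P450, dmGlut and CG9717, with r of 0.991, 0.984 and 0.979. Cyp6a21 had group means of 7.43, 5.05 and 6.18. For mag they were CG8952, Galk, the galactokinase, and CstF64, an RNA cleavage factor, with r of 0.958, 0.927 and 0.922. CG8952 had group means of 10.79, 10.58 and 10.71, which lie closer together than the SD of 0.31 between its control arrays.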

How the data were processed

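Per the labels, biotin-labelled RNA of 9 midgut pools went onto 1 Affymetrix array each. The deposited values are linear signal intensities, with 1 value for each probe set on each array. The submitters' processing notes name GCOS. Which version, algorithm and scaling it used is not stated in the labels or notes, and detection calls were not used here. All 9 columns were mapped by their labels, and no arrays were identical.

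From these intensities, 44 control probe sets were left out, an offset of 1.72 (the 20th percentile) was added, and log2 values were quantile normalised because trimmed array means differed 1.90-fold. Probe sets above the 40th percentile on at least 3 arrays were tested, 9675 of 13966. Probe sets were named by GEO's platform annotation, with symbols updated through RefSeq Release 6: 12443 had 1 gene, 327 several and 1196 none. Of those with 1 gene, 12394 matched RefSeq. For genes with more than 1 tested probe set, the brightest stood for the gene. The list entry Cp1 was matched by synonym to CtsL1.

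Group means of all 9 arrays were fitted with limma 3.58.1 in R 4.3.3 (lmFit, eBayes with a trend) and p-values were adjusted by Benjamini-Hochberg over all tested probe sets. The fit was tested on simulated data. Same-numbered arrays of different groups had residual correlations of -0.038 to 0.096, and other pairs -0.130 to 0.059, so numbers were not used as pairs. The labels give no batch, so batch and group cannot be told apart. The number of arrays limits the precision. The members and gene lists were chosen with earlier results of these data known. From each list, genes past the threshold with the largest changes are named, up to 4 per comparison, beside the 3 genes most alike to each member. Genes of the lists outside that rule (foxo, Mitf, bmm) were named after their values were seen, for their known roles. Alternatives covered the scaling, offset, filter, variance prior, groups fitted, a replicate block and each array left out in turn.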

Additional observations from a re-analysis of the deposited data

How the results depend on the processing

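In all 20 alternatives the rises of Lip3 and CG8093 under both treatments, of CG31089 after starvation and the fall of Lip4 after WGA were called in the same direction, as was the lower CG31089 after WGA than after starvation. Their log2 changes ran from 5.31 to 6.25 and 6.20 to 7.30 (Lip3), 2.47 to 3.21 and 2.05 to 2.88 (CG8093), 3.26 to 4.27 and -4.62 to -3.53 (CG31089) and -2.12 to -1.48 (Lip4). The starvation fall of Lip4 was lost with spike-in scaling (-0.70), which left 0 falls among the members. Lower Lip4 after WGA than after starvation was lost with the deposited scaling (-0.40), median centring (-0.64) and spike-in scaling (-0.79), each leaving 1 lower member in place of 2. Lip3 was called lower after WGA than after starvation at -0.89 with only the groups compared, and the range over left-out arrays was -1.11 to -0.56, with 2 to 3 lower members. Values that were not called changed sign. CG31089 after WGA was 0.28 with the deposited and 0.35 with the spike-in scaling, and -0.79 to 0.13 over left-out arrays. mag after starvation was 0.051 with cyclic loess and 0.39 with spike-in scaling, and -0.41 to 0.18 over left-out arrays. With a replicate block the fall of mag after WGA was called (-0.52, adjusted p = 0.0140), which made 2 falls, and the block changed no other call of a member. Replicate numbers did not pair the arrays by residual correlation, although 6 of 9 arrays correlated best with one of their own number. Without a filter Lip1 had -0.49 ± 0.29 after WGA (adjusted p = 0.329) and -0.39 ± 0.29 after starvation (adjusted p = 0.504). The cause of these differences was not tested.

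The median of all tested probe sets moved to 0.48 with the deposited and 0.53 with the spike-in scaling after WGA, to 0.12 and 0.53 after starvation, and to 0.35 with the deposited scaling and 0.11 with median centring between the treatments. Calls split into 1125 rises and 975 falls after WGA, but into 2118 and 460 under deposited scaling, or 2212 and 416 under spike-in scaling. After starvation they split into 786 and 686, but 571 and 799 with median centring and 1607 and 259 with spike-in scaling. Between the treatments they split into 575 and 539, but into 1009 and 180 under deposited scaling, or 821 and 343 under median centring. Over the alternatives the further acid lipases gave 1 to 2 falls after WGA (reported 2) and 2 to 3 lower values between the treatments (reported 2). Regulators gave 1 to 2 rises and 1 to 2 falls after WGA (reported 1 and 2), 1 to 3 rises after starvation (reported 2) and 0 to 2 lower values between the treatments (reported 1). Lysosomal genes gave 2 to 5 rises after WGA (reported 2), 1 to 4 rises and 1 to 3 falls after starvation (reported 2 and 2) and 0 to 2 higher values between the treatments (reported 1). Lipid droplet genes gave 1 to 2 falls after WGA (reported 2), 0 to 1 rises and 0 to 1 falls after starvation (reported 1 and 0) and 0 to 3 lower values between the treatments (reported 3). The pancreatic-type list gave 0 to 1 rises after WGA (reported 0), 1 to 4 rises and 1 to 3 falls after starvation (reported 2 and 2) and 0 to 2 higher values between the treatments (reported 2). Signals near the filter level, as for Lip3 in control, limit what these arrays can measure of fold changes.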
